A study of Mus musculus with 5 samples.

Results

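Barcodes that carried Stra8 transcripts, labelled here as germ cells at meiotic entry, made up 3883 of the 31764 filtered barcodes in 4 single-cell libraries of mouse whole testis. The label is less secure for the 350.4 h library, as described below. A barcode, which tags the RNA of 1 droplet and so usually of 1 cell, was a member if it held at least 2 Stra8 UMIs (counted molecules) and at most 1 UMI of the Sertoli cell genes Sox9 and Cldn11 together. Only barcodes with 1000 or more UMIs, 500 or more detected genes and a mitochondrial share below 20% were considered. There were 2410 members of 6702 filtered barcodes, 855 of 4848, 397 of 8739 and 221 of 11475 in time order. The libraries were labelled 144, 350.4, 556.8 and 763.2 h, and values given in time order follow these times. Members were chosen by their UMIs of Stra8, Sox9 and Cldn11, so the values of these genes are a description.

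All testes were labelled as synchronized, a state in which spermatogenesis starts together along the tubules, and the study followed Sertoli cells while the cycle of the seminiferous epithelium was established. These libraries were titled EP1, EP2, EP3 and EP4 in time order, and the 0 h library was titled Control. The labels give neither the agent used to synchronize the testes nor the strain and age of the mice. Each time had 1 library, so no difference below has a replicate check or a p-value, and each describes these libraries.

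STRA8 is made in spermatogonia and preleptotene spermatocytes in answer to retinoic acid, and in the mouse it is needed for the start of meiosis. It acts in the nucleus together with its partner MEIOSIN on promoters of meiotic genes as the cells enter the last round of DNA synthesis before meiosis. Spermatogonia that have committed to differentiate carry the receptor KIT, and spermatocytes that follow the Stra8 stage build the chromosome axis and begin recombination.

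Promoters of Stra8 itself, of its partner and of the marker genes Prss50 and M1ap, chosen because each holds a match, are shown because the motif known from STRA8 binding can be looked for in them. They run from 250 bases before to 50 bases after the RefSeq start site on GRCm38.p6. Capitals mark the letters CNCCTCAG on either strand, which are known from sites bound by STRA8. The Stra8 promoter (chr6:34920698-34920997, + strand) held no match. Prss50 (chr9:110857714-110858013, + strand), M1ap (chr6:82946672-82946971, + strand) and Bhmg1, the RefSeq name of the gene for MEIOSIN listed in the files as Gm4969 (chr7:19118295-19118594, - strand), held 1 match each. Of the 12 named genes higher in every library, 9 were in the table and 3 held a match, Prss50, M1ap and Lmo1, while the marker Rhox13 and also Cenpa, Taf7l, Map7d2, Usp26 and Elavl2 held none.
Stra8: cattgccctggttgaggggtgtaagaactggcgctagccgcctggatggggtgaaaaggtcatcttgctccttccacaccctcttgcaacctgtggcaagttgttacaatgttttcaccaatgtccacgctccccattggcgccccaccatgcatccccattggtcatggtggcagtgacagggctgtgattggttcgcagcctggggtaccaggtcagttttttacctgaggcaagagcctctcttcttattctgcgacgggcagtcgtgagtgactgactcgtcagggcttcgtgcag
Prss50: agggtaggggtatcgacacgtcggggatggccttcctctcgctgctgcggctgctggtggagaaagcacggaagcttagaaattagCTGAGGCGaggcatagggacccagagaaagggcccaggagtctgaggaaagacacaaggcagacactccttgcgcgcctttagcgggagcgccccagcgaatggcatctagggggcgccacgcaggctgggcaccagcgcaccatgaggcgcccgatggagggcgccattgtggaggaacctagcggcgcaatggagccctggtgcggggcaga
M1ap: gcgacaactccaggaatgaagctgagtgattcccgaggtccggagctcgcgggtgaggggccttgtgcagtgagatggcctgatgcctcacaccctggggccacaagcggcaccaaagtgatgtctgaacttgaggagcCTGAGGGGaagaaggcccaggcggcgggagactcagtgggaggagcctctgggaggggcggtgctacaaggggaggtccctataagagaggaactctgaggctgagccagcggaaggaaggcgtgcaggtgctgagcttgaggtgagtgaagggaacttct
Bhmg1: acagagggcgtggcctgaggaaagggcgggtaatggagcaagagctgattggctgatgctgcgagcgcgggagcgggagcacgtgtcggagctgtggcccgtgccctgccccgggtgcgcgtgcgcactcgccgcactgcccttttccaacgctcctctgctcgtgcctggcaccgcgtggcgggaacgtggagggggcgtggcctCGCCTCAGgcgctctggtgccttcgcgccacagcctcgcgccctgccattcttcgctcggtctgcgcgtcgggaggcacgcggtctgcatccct
The letters occurred in 2465 of 27025 genes with a promoter in the table (9.12%). Of the 705 genes called higher in members at 144 h that matched the table, 107 held them (15.2%), beside 410 of 3610 matched genes tested there (11.4%). Among genes higher in all 4 libraries and matched, 24 of 121 held them (19.8%), and 42 such genes were not matched. The last 3 groups leave out ribosomal genes and unnamed gene models, and the called ones had at least 50 UMIs in members. A match describes the letters and is no evidence of binding.

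The 4 libraries held 96256872 to 118147393 UMIs over all deposited barcodes. Median UMIs per barcode were 14535.5, 21009, 9254 and 8342 for members in time order, and 10909.5, 3166, 5866 and 3030 for all other filtered barcodes. Members were thus the deeper barcodes at each time. No member barcode was shared over the 6 pairs of these libraries. A Scrublet doublet score over 0.25 was given to 104, 29, 15 and 11 members in time order.

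Members made up a smaller share of each later library. They were 35.96%, 17.6%, 4.54% and 1.93% of the filtered barcodes in time order, with exact 95% intervals of 34.8 to 37.1%, 16.6 to 18.7%, 4.12 to 5.001% and 1.68 to 2.19%. These intervals and all others below cover counting error only. A deep barcode reaches 2 UMIs more easily, so barcodes were also thinned to 2000 UMIs each, with shallower ones left out. At least 2 Stra8 UMIs, within the same Sertoli limit, were then held by 26.8%, 4.58%, 1.96% and 1.03% in time order. The order of the times stayed as it was, and the value at 350.4 h was well below the unthinned one. The size of these shares also depends on how many other cells each testis held.

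Stra8 per member was highest at 144 h and lowest at 350.4 h. The median member held 15 Stra8 UMIs, 4, 5 and 5 in time order, and the highest held 216, 116, 74 and 52. As CPM, the gene's UMIs over the barcode's total times 1000000, the medians were 1180.4, 187, 632 and 656. Members with exactly 2 UMIs were 6.89%, 30.8%, 29.97% and 28.1% in time order, so a far smaller share lay at the threshold at 144 h.

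**Figure D1:**
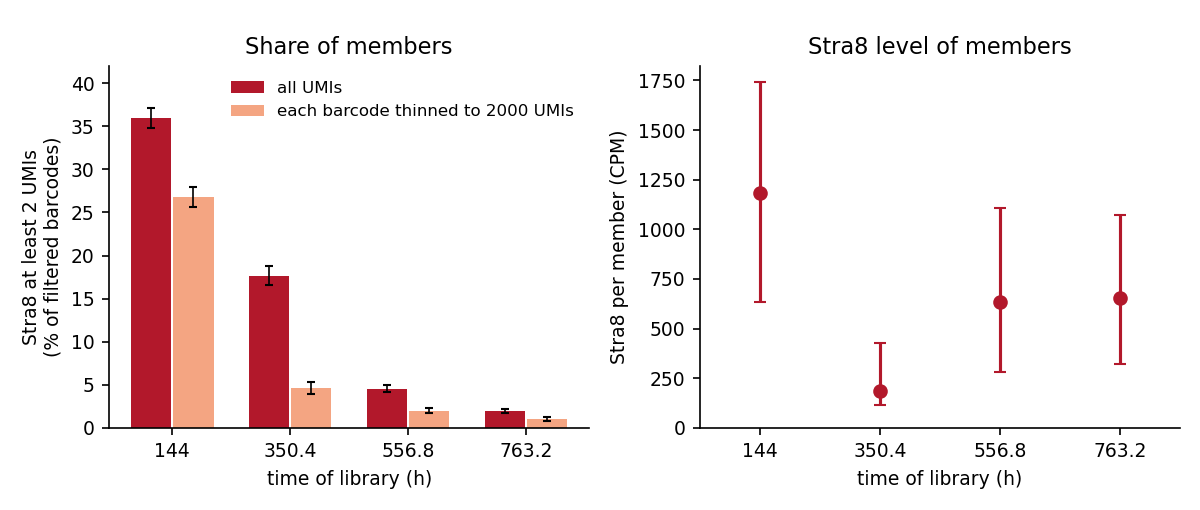
Left, the share of filtered barcodes with at least 2 Stra8 UMIs (%) by time of the library (h), with all UMIs and after thinning to 2000 UMIs (bars, with exact 95% intervals of counting). Both sets of bars apply the Sertoli limit, the thinned ones to thinned UMIs. Right, Stra8 per member in CPM (points, medians; lines, quartiles), where the median of 187 CPM at 350.4 h lies below the others.

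Stra8 UMIs also occurred in barcodes that should lack them. Barcodes with at least 3 UMIs of Sox9 and Cldn11, here called Sertoli-marked, numbered 1732, 118, 62 and 25 in time order and had medians of 18392.5, 27967, 26717.5 and 18737 UMIs. At least 1 Stra8 UMI was found in 22.5%, 11.02%, 4.84% and 8% of them. After thinning, at least 1 Stra8 UMI was found in 81.9%, 44.4%, 69.8% and 70.9% of members, against 6.503%, 2.88% and 1.61% of Sertoli-marked barcodes at the first 3 times and 0 of 25 at 763.2 h, which allows up to 13.7%. Members were chosen by Stra8, so their share is a description and no support for the label.

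Barcodes just inside and just outside the Stra8 threshold differed by degree. With 2 Stra8 UMIs, Prss50 was at 54.6 CPM, against 37.4 CPM with 1 UMI. It was at 235 against 156 CPM, 344 against 182 CPM and 141 against 149.8 CPM in time order. For the Sertoli limit at 144 h, the 449 members with 1 UMI of Sox9 and Cldn11 had 47.4 CPM of the Sertoli cell gene Cst9. The 90 barcodes left out for 2 UMIs had 95.3 CPM.

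The label was checked with marker lists. It is least secure at 350.4 h, where members differed little from Stra8-free barcodes chosen by Kit, described below. There 0.119% of measured genes were called higher in members and 5.76% lower. The 5 meiotic entry markers, Stra8 included, summed to 1024 to 2099.9 CPM in members over the 4 libraries and to 77.6 to 235 CPM in the other barcodes. Markers of undifferentiated spermatogonia summed to 49.95, 27.96, 44.6 and 39.9 CPM in members in time order. The others held 60.05, 134, 54.1 and 55.1 CPM, so the gap was wide only at 350.4 h. There 1 of these 5 markers was measured by the calls defined below, and none was at the other times. Markers of differentiating spermatogonia summed to 857 to 1111 CPM in members and 390 to 805 CPM in the others. Leptotene and zygotene markers summed to 1682 to 2306 CPM in members and 387 to 3225 CPM in the others. At 350.4 h the latter were at 1682 CPM in members and 3225 CPM in the others. By the calls defined below, 3 of 5 measured were lower there and 1 of 5 higher. Sertoli markers, of which Sox9 and Cldn11 were limited by the rule, summed to 18.96 to 85.8 CPM in members and 79.5 to 3383 CPM in the others. As these sums hold genes of the rule, the entry markers other than Stra8 are given gene by gene below. Cst9, a Sertoli marker the rule did not use, was at 41.7, 21.3, 10.7 and 12.8 CPM in members and 1559.6, 208, 60.4 and 51.02 CPM in the other barcodes. The rule places every Sertoli-marked barcode among the others, so this gap is a description and no support for the label. Markers of elongating spermatids summed to 3.62 to 9929 CPM in members, a range taken up again below.

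For the comparisons that follow, UMIs were summed over each set of barcodes and given as CPM. A gene was measured if it reached 50 CPM on its higher side and had 20 UMIs, seen or expected, in members. It was called higher or lower if the 95% interval of the ratio lay wholly beyond 2-fold. Against all other filtered barcodes, 19.3%, 13.9%, 26.3% and 26.9% of 4739, 4734, 4779 and 4897 genes were called higher in members in time order, and 21.2%, 19.4%, 19.8% and 20.2% lower. Of the 4 entry markers other than Stra8, 4 were called higher than in these other barcodes at 144, 556.8 and 763.2 h and 3 at 350.4 h. Fewer were called against barcodes chosen by Kit, as given below.

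Prss50, the gene for a serine protease-like protein of the testis, was at 398, 271, 321 and 237 CPM in members and 36.5, 63.8, 51.5 and 19.2 CPM in the other barcodes in time order. Its ratio was 10.9 (10.4 to 11.4), 4.25 (4.07 to 4.43), 6.22 (5.88 to 6.58) and 12.3 (11.3 to 13.5) in time order. M1ap, which male mice need for meiosis, was at 259, 102, 108 and 118 CPM in members and 27.2, 23.9, 10.3 and 22.8 CPM in the other barcodes, with ratios of 9.53, 4.29, 10.4 and 5.18. For both genes every library's members lay above the others of every library. Rhox13, an X-linked homeobox gene, was at 228, 248, 134 and 136 CPM in members and 28.1, 54.7, 12.03 and 10.1 CPM in the other barcodes, with ratios of 8.104, 4.54, 11.1 and 13.4. It showed the same separation. These markers were listed with earlier results of these data known, and how many of all genes separate so was not counted.

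Ccne2, the gene for cyclin E2, which acts at the start of DNA synthesis, parted from these at 350.4 h. It was at 179.9, 109.5, 101 and 122 CPM in members and 20.7, 83.6, 19.03 and 23.5 CPM in the other barcodes. The ratio was 8.71 (8.197 to 9.26) at 144 h and 1.31 (1.24 to 1.38) at 350.4 h, where it was not called. Prdm9, whose product marks the sites of recombination, was at 79.8, 44.2, 91.8 and 61.7 CPM in members and 8.26, 8.62, 6.34 and 2.96 CPM in the other barcodes, and at 350.4 h it did not reach 50 CPM. Gm4969, the gene for MEIOSIN, stayed below 50 CPM at all 4 times, at 15.5, 14.8, 28.6 and 19.6 CPM in members and 1.48, 2.61, 1.68 and 0.773 CPM in the other barcodes. Members were above the others for it in each library, but no call was possible.

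Called higher in each of the 4 libraries were 177 of the 3019 genes measured in each (5.86%), and 20 were called lower (0.662%). By the highest lower bounds of the ratio the higher ones were led by Cenpa, Rhox13, Tex15, Taf7l, Tex11, Prss50, M1ap, Map7d2, Usp26, Tex13, Elavl2 and Lmo1. Cenpa, the histone variant of centromeres, was at 365, 399, 108 and 132 CPM in members and 76.2, 87.9, 4.77 and 12.98 CPM in the other barcodes. Tex15, which acts in the repair of meiotic breaks and in transposon silencing, was at 572, 737, 784 and 774 CPM in members and 84.4, 169.8, 68.2 and 90.1 CPM in the other barcodes. Taf7l, a germ cell relative of a subunit of the transcription factor TFIID, was at 521, 496, 472 and 424 CPM in members and 86.4, 117, 51.5 and 40.7 CPM in the other barcodes. Members held similar levels of Tex15 and Taf7l over the 4 libraries, while Cenpa was lower in the members of the later pair. Tex11, an X-linked gene needed for crossing over, was at 199.96, 275, 110.2 and 130.2 CPM in members and 30.4, 64.004, 11.1 and 12.2 CPM in the other barcodes. Lmo1, a transcriptional cofactor gene, was at 66.1, 66.3, 54.1 and 58.7 CPM in members and 15.6, 15.7, 1.71 and 2.98 CPM in the other barcodes.

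The genes lower in each library were led by Defb19, Cst9, Spcs1, Tmsb4x, Meig1, Rsph1, Art3 and Ldha. Defb19, a defensin gene of Sertoli cells, was at 113, 46.99, 25.7 and 26.7 CPM in members and 3906, 449, 159 and 104 CPM in the other barcodes. Meig1, which sperm formation needs, was at 37.6, 206, 2687 and 2147 CPM in members and 126, 3211, 7151 and 6144 CPM in the other barcodes. The first had its widest gap at 144 h and the second at 350.4 h. Ldha, a lactate dehydrogenase gene, was at 14.3, 28.7, 332 and 238 CPM in members and 108, 487, 833 and 652 CPM in the other barcodes.

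The make-up of the other barcodes differed with time, and the counts at 144 h moved with it. Sertoli-marked barcodes were 1732 of the 4292 others, 118 of 3993, 62 of 8342 and 25 of 11254 in time order. Set only against barcodes with Ddx4 or Dazl UMIs and at most 1 UMI of Sox9 and Cldn11, called germ cells below, members at 144 h had 179 genes higher and 467 lower, in place of 913 and 1007. The counts of higher genes at the later times were 715, 1222 and 1243, in place of 659, 1257 and 1318.

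Regulators of meiotic entry were mostly higher in members, with 9 of 9 measured genes called higher, 4 of 10, 7 of 9 and 7 of 9 in time order. The median log2 ratios were 2.37, 0.63, 1.83 and 1.75, beside 0.31, 0.19, 0.03 and 0.03 over all measured genes, and 1.22 at 144 h against germ cells. Called lower at 350.4 h were Mybl1 and Tcfl5, both transcription factor genes of pachytene spermatocytes. Meioc, whose product works with YTHDC2 to end the mitotic program, was at 208, 322, 247 and 256 CPM in members and 25.2, 268, 105 and 95.5 CPM in the other barcodes. Its level in members was similar over the libraries, and that of the others was not. Dazl, a germ cell RNA-binding protein gene, was at 1457, 1345, 959 and 839 CPM in members and 283, 707, 159.8 and 146 CPM in the other barcodes.

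Genes of differentiating spermatogonia were also high in members. Called higher were 10 of 13, 7 of 10, 7 of 9 and 7 of 9 in time order. The medians were 2.04, 1.47, 4.26 and 3.74, and 0.79 at 144 h against germ cells. Kit, the receptor gene of these cells, was at 80.7, 111, 82.3 and 96.4 CPM in members and 20.2, 25.8, 1.83 and 6.87 CPM in the other barcodes. Crabp1, whose product binds retinoic acid in the cytoplasm, was at 372, 244, 177 and 158 CPM in members and 71.2, 65.3, 4.599 and 8.97 CPM in the other barcodes. For both, the gap was widest at 556.8 h, where the other barcodes held little of either. Called lower were Ly6k and Tex101, genes for germ cell surface proteins, at 350.4 h and Dmrtb1, a regulator of the passage from mitosis to meiosis, at 556.8 and 763.2 h.

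DNA replication genes were called higher in 25 of 27, 13 of 28, 15 of 25 and 18 of 25 measured cases in time order, and none was called lower. The medians were 1.84, 1.03, 2.19 and 2.16, and 0.66 at 144 h against germ cells. Mcm2, a subunit of the helicase that opens DNA for copying, was at 151, 106, 69.7 and 70.4 CPM in members and 38.1, 32.9, 2.18 and 4.73 CPM in the other barcodes. Mitosis genes were called higher in 21 of 22, 13 of 24, 10 of 23 and 8 of 22 cases, with medians of 1.93, 1.17, 0.86 and 0.75, and 0.55 at 144 h against germ cells. Of all measured genes 19.3%, 13.9%, 26.3% and 26.9% were called higher in time order. The kinase gene Aurka was called lower at 556.8 h. Mki67, a marker of cycling cells, was at 176, 526, 221 and 229.6 CPM in members and 44.2, 158, 34.3 and 39.6 CPM in the other barcodes, and was highest in the members at 350.4 h.

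Genes of the synaptonemal complex and chromosome axis were called higher in 13 of 14 cases, 4 of 14, 8 of 15 and 5 of 14 in time order. The shares over all measured genes were 19.3%, 13.9%, 26.3% and 26.9%. The medians were 2.27, 0.24, 1.20 and 0.80, and 0.76 at 144 h against germ cells. At 350.4 h Hormad1, Sycp2, Syce3 and Sycp3 were called lower. Sycp3, a core protein gene of the axis, was at 669.7, 380.5, 898 and 538 CPM in members and 133, 1013, 478 and 397 CPM in the other barcodes. Members were above the others at 144, 556.8 and 763.2 h and below them at 350.4 h. Break and recombination genes were called higher in 10 of 11, 5 of 13, 11 of 15 and 7 of 10 cases, with medians of 2.43, 0.52, 1.96 and 2.50. At 350.4 h 4 of 13 were called lower, Meiob, Psmc3ip, Hfm1 and H2afx.

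The piRNA pathway, which silences transposons in germ cells, was mostly higher at 144 h and mostly lower at 350.4 h. Called higher were 8 of 8, 0 of 16, 3 of 15 and 2 of 13 genes in time order, and called lower 0 of 8, 13 of 16, 2 of 15 and 3 of 13. At 556.8 and 763.2 h the shares called lower were near or below those of all measured genes, 19.8% and 20.2%. The medians were 1.82, -1.49, -0.42 and -0.50, and 0.05 at 144 h against germ cells. Ddx4, the germ cell helicase gene, was at 257, 269.6, 280.4 and 263 CPM in members and 71.5, 604, 287 and 352 CPM in the other barcodes. Its level in members was nearly level over the libraries, and the difference lay in the others. Few genes of retinoic acid response were measured: Crabp1 was called higher at all 4 times, and those called lower at 144 h included Aldh1a1, Cyp26b1 and Rara.

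Genes of later stages were mostly called lower in members from 350.4 h on. At 144 h 0 of 3 pachytene genes and 0 of 1 spermatid genes were called lower. Pachytene genes were called lower in 10 of 11, 10 of 15 and 10 of 15 cases at 350.4, 556.8 and 763.2 h. Spermatid genes were called lower in 9 of 9, 16 of 18 and 17 of 20. Of all measured genes 19.4%, 19.8% and 20.2% were called lower at these times. Genes low in members were measured only through the other barcodes, so the counts of both lists are a description. Ldhc, the lactate dehydrogenase gene of spermatocytes and sperm, was at 22.04, 219, 3003 and 2335 CPM in members and 25.1, 3375, 8284 and 6429 CPM in the other barcodes. Sertoli genes other than those of the rule were called lower in 15 of 15 cases at 144 h and 9 of 9 at 350.4 h. Sertoli-marked barcodes lie among the others by the rule, so these counts are a description.

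**Figure D2:**
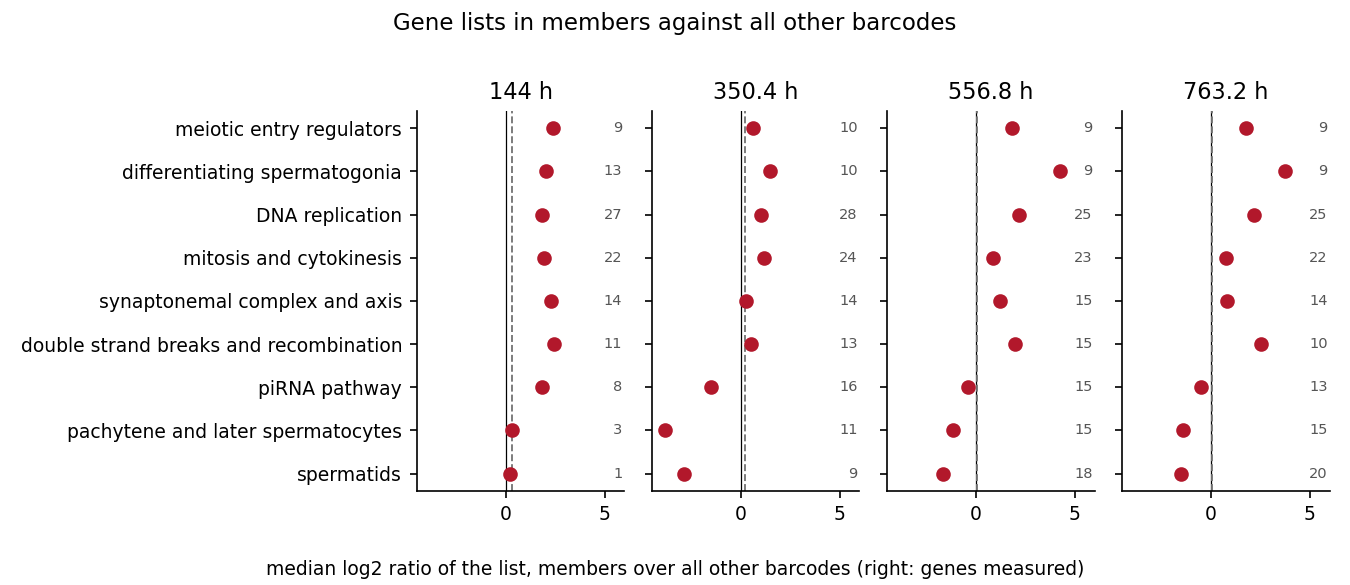
Median log2 ratio of summed CPM, members over all other barcodes, for 9 gene lists (1 panel a library, points), with the number of genes measured at the right of each panel and the median of all measured genes as a dashed line. The piRNA median was 1.82 at 144 h and -1.49 at 350.4 h.

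Outside the genes called in every library, each time had its own leading genes. They were Ugt8a, Prdm9 and Eaf2 at 144 h, Kif4, Ube2c and Arhgdig at 350.4 h, Smagp, Kit and Crabp1 at 556.8 h, and Hist1h2ab, Hist1h2bm and Sohlh1 at 763.2 h. Ube2c, which acts at the exit from mitosis, was at 202, 335, 99.7 and 87.3 CPM in members and 53.2, 78.5, 43.1 and 53.6 CPM in the other barcodes. Kif4, a motor protein gene of mitotic chromosomes, was at 51.96, 102, 47.6 and 58.7 CPM in members and 10.6, 22.3, 5.39 and 5.81 CPM in the other barcodes. Both were highest in the members at 350.4 h. Sohlh1, a transcription factor gene of spermatogonia, was at 117, 78.95, 73.3 and 80.2 CPM in members and 33.2, 27.9, 3.21 and 3.75 CPM in the other barcodes.

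Members were next set against barcodes chosen by Kit, a gene of differentiating spermatogonia. Kit-marked barcodes held at least 2 Kit UMIs, at least 1 of Dazl and Ddx4, at most 1 of Sox9 and Cldn11, and no Stra8, and numbered 43, 191, 22 and 127 in time order. Called higher in members were 2.98%, 0.119%, 1.95% and 2.22% of measured genes, and called lower 10.8%, 5.76%, 10.7% and 11%. The 4 Leydig cell markers summed to 2.17 to 20.8 CPM in members over the libraries and to 2912 CPM in the Kit-marked barcodes at 144 h; their part in the result was not tested. Round spermatid markers summed to 5.08, 16.996, 113 and 367 CPM in members and 2.12, 259, 778 and 1201 CPM in Kit-marked barcodes in time order. Elongating spermatid markers summed to 3.62, 62.1, 9256 and 9929 CPM in members and 2.12, 219, 32893 and 3577 CPM in Kit-marked barcodes. The Kit-marked barcodes of the 3 later times thus also carried spermatid transcripts, and 10 of 11, 16 of 20 and 6 of 19 spermatid genes were called lower in members there. Prm1, Prm2 and Tnp2 were called higher in members at 763.2 h. The part of these transcripts in the other differences was not tested. At 350.4 h the genes higher in members numbered 5: Stra8, Prss50, Ly6k, Bod1l and 1700019B21Rik. Of these, Bod1l and 1700019B21Rik are named after their values were seen.

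Prss50 and Ly6k were called higher than in Kit-marked barcodes in every library. Of the 4 entry markers other than Stra8, 4, 1, 1 and 1 were called higher in members in time order, the 1 being Prss50. Their median log2 ratios were 2.13, 0.36, 0.58 and 1.05. After thinning, Rhox13 was found in 39.9% of members and 37.6% of Kit-marked barcodes at 350.4 h. No marker of differentiating spermatogonia, a set that includes Kit, was called in any library. Of the longer list of such genes, 3 of 12, 1 of 9, 3 of 9 and 2 of 8 were called higher. Ly6k was among them each time, and none was called lower. Prss50 was at 398, 271, 321 and 237 CPM in members and 47.6, 120.3, 76.2 and 40.2 CPM in Kit-marked barcodes, with ratios of 8.35, 2.25, 4.205 and 5.89. Ly6k was at 232, 168, 314 and 226 CPM in members and 24.3, 66.4, 67.5 and 91.5 CPM in Kit-marked barcodes, with ratios of 9.53, 2.53, 4.64 and 2.47. The ratio was smallest at 350.4 h for Prss50, and at 763.2 and 350.4 h for Ly6k. Sycp3 was at 669.7, 380.5, 898 and 538 CPM in members and 117, 257, 192 and 244 CPM in Kit-marked barcodes. Axis genes were called higher in members in 9 of 14, 0 of 14, 5 of 15 and 2 of 14 cases, with medians of 1.64, 0.22, 0.74 and 0.62 beside 0.28, 0.07, 0.10 and 0.11 over all measured genes. Replication genes were called higher in 1 of 27 at 144 h and in none at the other times. Mitosis genes were called higher in 1 of 22, 0 of 24, 0 of 23 and 0 of 22 cases in time order. For break and recombination genes the counts were 5 of 11, 0 of 10, 6 of 14 and 3 of 10.

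Recombination-marked barcodes stood for a later step, with at least 3 UMIs of Prdm9, Meiob and Dmc1, at most 1 of Sox9 and Cldn11, and no Stra8. They numbered 24, 452, 744 and 365 in time order. Called higher in members were 10.4%, 22.4%, 8.86% and 10.5% of measured genes, and called lower 14.8%, 22.1%, 1.01% and 7.98%. In every library the higher genes were led by Cited1, Cenpa, Auts2, Rbm3, Ftl1 and Nudt19 and the leading lower ones included Gml, Gml2, Glipr1l2, Phf3 and Elfn2. Cited1, a transcriptional coactivator gene, was at 359, 279, 182 and 209.6 CPM in members and 33.2, 24.2, 12.6 and 14.4 CPM in recombination-marked barcodes. Gml, a gene of the Ly6 family, was at 14.4, 17.5, 19.4 and 21.5 CPM in members and 862, 574, 169 and 385 CPM in recombination-marked barcodes; Gml and Gml2 are close relatives, so their UMIs may be shared out between them with error. Neither gene overlapped between members and recombination-marked barcodes over the libraries. Both were named for bounds far from 1 in every library, so this is a description. How many of all genes separate so was not counted.

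Against these barcodes most genes of differentiating spermatogonia were called higher in members, and pachytene genes were called lower or not called. Genes of differentiating spermatogonia were called higher in members in 8 of 13, 7 of 10, 6 of 9 and 6 of 9 cases. Pachytene genes were called lower in 11 of 11, 10 of 11, 3 of 15 and 8 of 15 cases. The medians of the 2 lists were 1.84, 2.92, 5.21 and 2.79 and -4.23, -4.12, -0.84 and -1.47, beside 0.01, 0.13, -0.13 and -0.06 over all measured genes. Axis genes were called higher in 2 of 15, 4 of 16, 2 of 15 and 4 of 15 cases and lower in 5 of 15, 8 of 16, 0 of 15 and 4 of 15, with medians of 0.17, -0.60, -0.28 and -0.52. Recombination genes other than those of the choice were called higher in 4 of 13, 4 of 14, 3 of 13 and 3 of 13 cases and lower in 6 of 13, 8 of 14, 1 of 13 and 6 of 13, with medians of -0.58, -1.34, 0.08 and -0.77. Over the libraries these 2 lists thus held calls in both directions. The spermatid genes Tnp1, Tnp2 and Prm2 were called higher in members at 763.2 h. Sycp3 was at 669.7, 380.5, 898 and 538 CPM in members and 2607, 1587, 1528 and 1957 CPM in recombination-marked barcodes. Ly6k was at 232, 168, 314 and 226 CPM in members and 1209.6, 768, 532 and 653 CPM in recombination-marked barcodes, so unlike most of its list it was lower in members. It was called so at 144, 350.4 and 763.2 h.

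**Figure D3:**
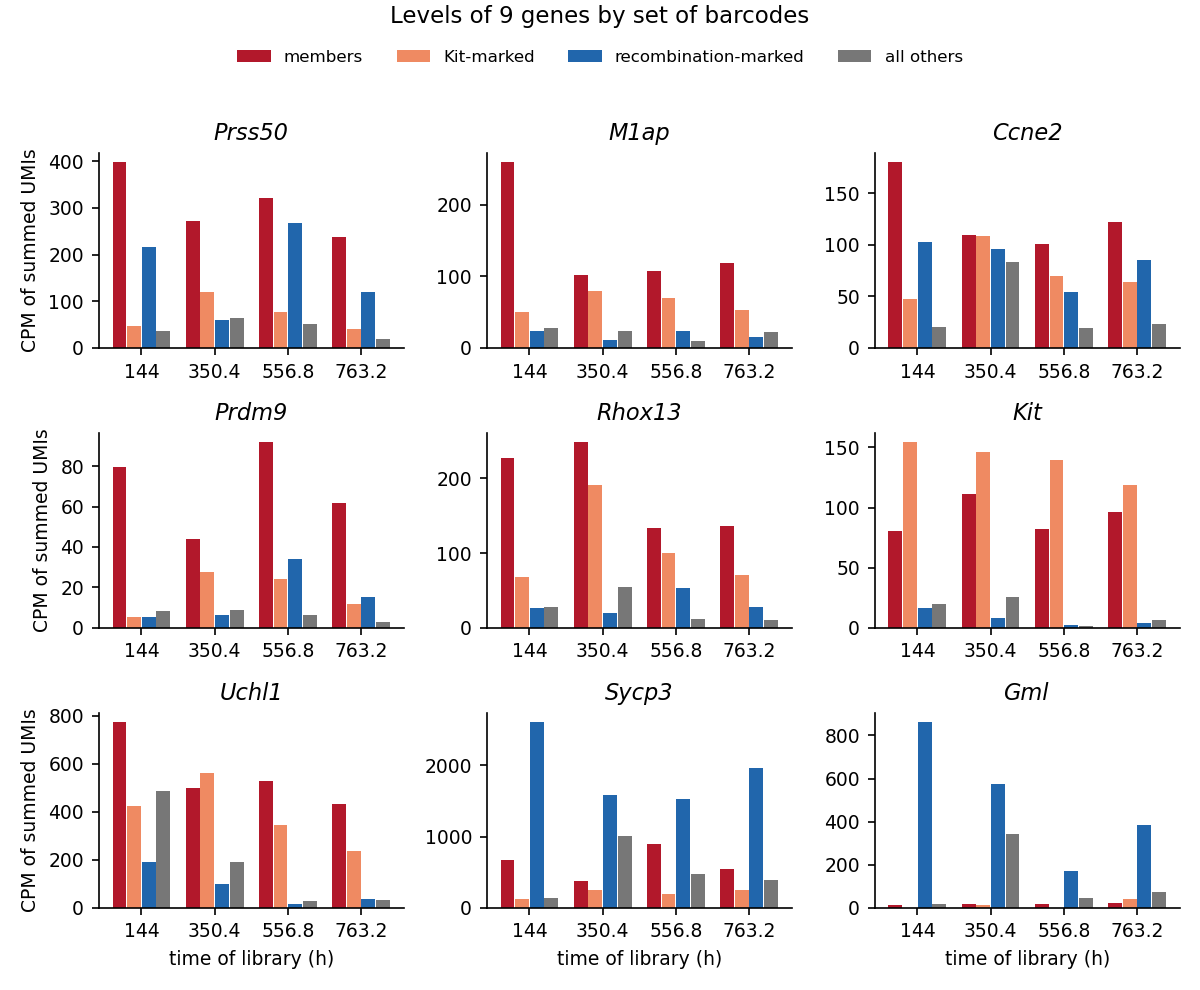
CPM of summed UMIs of 9 genes in members, Kit-marked, recombination-marked and all other barcodes by time of the library (bars from 0; 1 library a time, so no error bars). Gml lay at 14.4, 17.5, 19.4 and 21.5 CPM in members and at 862, 574, 169 and 385 CPM in recombination-marked barcodes.

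X-linked genes set members apart from recombination-marked barcodes. In male meiosis the X chromosome is silenced as spermatocytes pass into pachytene. X-linked genes gave 2.45%, 2.299%, 1.65% and 1.85% of nuclear UMIs in members in time order, 2.84%, 2.15%, 1.77% and 1.497% in Kit-marked and 0.657%, 0.284%, 1.06% and 0.637% in recombination-marked barcodes. In all other barcodes they gave 3.895%, 1.02%, 0.675% and 0.894%, and in Sertoli-marked ones 4.48%, 4.34%, 3.02% and 2.58%. Members were above recombination-marked barcodes at each time, and below all others at 144 h. Against recombination-marked barcodes, 99 of 118, 109 of 111, 25 of 83 and 67 of 93 X-linked genes were called higher in time order. Of measured autosomal genes 8.37%, 20.5%, 8.49% and 9.22% were called higher. Genes low in recombination-marked barcodes were measured only through members, so the X-linked counts are a description. Against all others, 28 of 68 X-linked genes measured in each library were called higher in each (41.2%). Of other genes 149 of 2951 were (5.05%). Genes low in the others were measured only through members here too. Library by library, 48 of 183, 96 of 120, 70 of 90 and 74 of 104 X-linked genes were called higher in time order. At 144 h more were called lower, 77 of 183 (42.1%), beside 20.5% of autosomal genes.

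**Figure D4:**
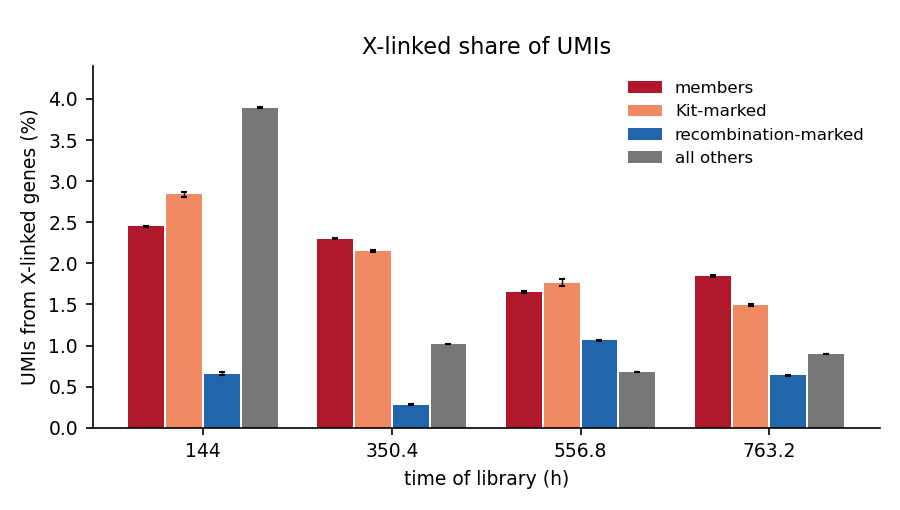
Share of nuclear UMIs from X-linked genes (%) in members, Kit-marked, recombination-marked and all other barcodes by time of the library (bars, with exact 95% intervals of counting). Members lie above recombination-marked barcodes in each library, at 2.45%, 2.299%, 1.65% and 1.85% against 0.657%, 0.284%, 1.06% and 0.637%.

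Members also differed among themselves. Those with 3 or more Stra8 UMIs after thinning, called Stra8-high here, numbered 972, 73, 85 and 52 in time order, and those with 0 numbered 425, 469, 120 and 64. This split was chosen after the data were seen. Median depths were 12988, 12732, 9238 and 8327 UMIs in Stra8-high members and 27136, 23357, 10759.5 and 13082.5 UMIs in those with 0, and the part of depth in what follows was not tested. Called higher in Stra8-high members were 6.9%, 2.28%, 0.437% and 1.43% of measured genes, and called lower 2.92%, 0.657%, 1.88% and 3.74%.

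At 144 h Stra8-high members carried more transcripts of Prss50, Prdm9 and several axis genes. Prss50 was at 684 CPM in Stra8-high members and 113 CPM in those with 0, a ratio of 6.05 (5.72 to 6.402). Prdm9 was at 147 and 22.2 CPM in the same order, a ratio of 6.62 (5.84 to 7.53). Axis genes were called higher in 10 of 18 cases and lower in none. Dmrtb1 was at 31.4 and 125 CPM, and Uchl1, a ubiquitin hydrolase gene of spermatogonia, at 469 and 1014 CPM, both called lower in Stra8-high members. Of the genes of differentiating spermatogonia 4 of 13 were called lower, Crabp1 and Dnmt3b being the other two, and 4 of 13 were called higher, Rhox13, Esx1, Ly6k and Tex101.

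At 350.4 h many mitosis genes differed. Mitosis genes were called lower in Stra8-high members in 12 of 24 cases and higher in none, with a median log2 ratio of -1.30 beside -0.03 over all measured genes. Plk1, a kinase gene of mitosis, was at 15.3 CPM in Stra8-high members and 145 CPM in those with 0, a ratio of 0.105 (0.0612 to 0.169). Ccnb1, the gene for cyclin B1, was at 44.02 and 247 CPM in the same order. M1ap was at 313 and 83.6 CPM and Ccne2 at 283 and 95.8 CPM, both called higher. Axis genes were called higher in 5 of 17 cases and lower in none. Both sets were split by Stra8, a gene of the rule, and the set with 0 was the deeper one, so the split describes members and does not test the label.

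At 556.8 h few listed genes differed, and of the genes of differentiating spermatogonia 2 of 11 were called higher, Sohlh2 and Uchl1, and 1 of 11 lower, Dmrtb1. Uchl1 was at 811 CPM in Stra8-high members and 334 CPM in those with 0, a ratio of 2.43 (2.19 to 2.69). Dmrtb1 was at 164 and 406 CPM in the same order and was called lower. Sycp3 was at 722 and 933 CPM and Prss50 at 341 and 261 CPM, neither called. At 763.2 h Prdm9 was at 139 and 25.002 CPM, Ccne2 at 242 and 59.2 CPM and Prss50 at 383 and 148 CPM, all called higher. The direction of Uchl1 at 556.8 h was opposite to that at 144 h, and this difference was not tested. Prm1, a spermatid gene, was at 2281 CPM in Stra8-high members and 4695 CPM in those with 0 at 556.8 h, and at 2031 and 5413 CPM in the same order at 763.2 h. Spermatid genes were called lower in Stra8-high members in 4 of 15 cases at 556.8 h and 8 of 19 at 763.2 h, and pachytene genes in 1 of 15 and 4 of 15. Their part in the other differences was not tested.

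**Figure D5:**
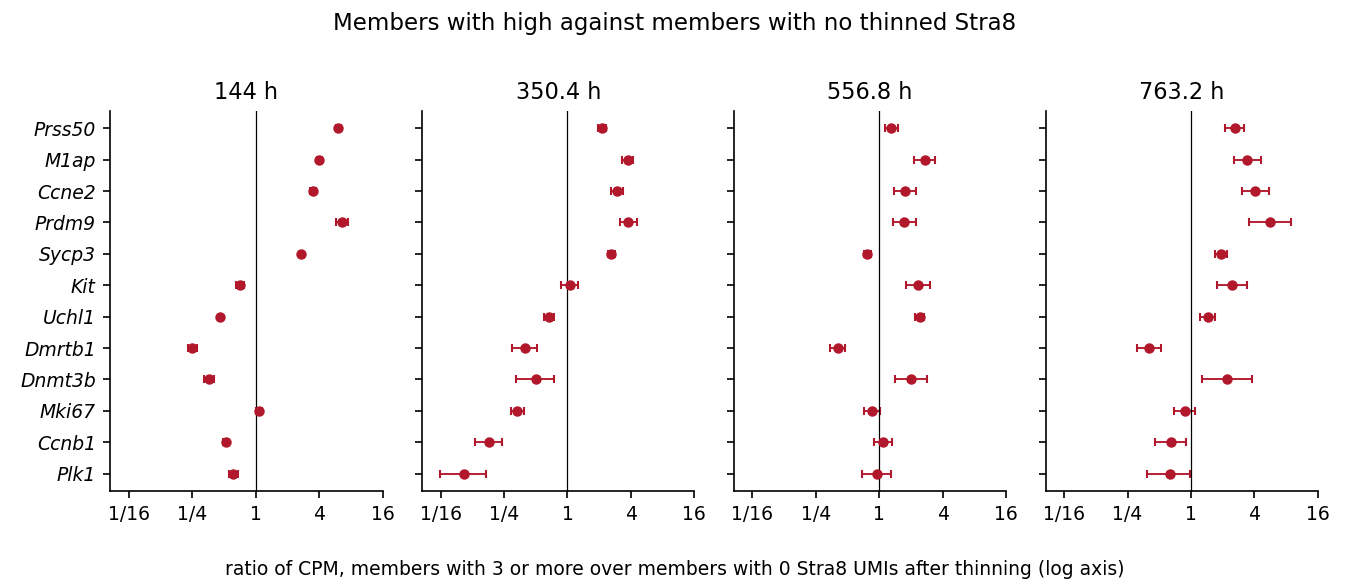
Ratio of CPM between members with 3 or more and members with 0 Stra8 UMIs after thinning, for 12 genes (1 panel a library; points on a log axis with 95% intervals of counting). The ratio of Plk1 was 0.105 at 350.4 h and 0.948 at 556.8 h.

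Members were also split by whether they held at least 1 UMI of Kit and at least 1 of the recombination genes Prdm9, Meiob and Dmc1. Members with both numbered 1145, 539, 84 and 71 in time order, those with recombination genes only 889, 134, 184 and 65, those with Kit only 179, 112, 49 and 43 and those with neither 197, 70, 80 and 42. Their median depths were 19597, 23806, 15455 and 13124 UMIs with both, 12102, 13828, 8885.5 and 7668 with recombination genes only, 22301, 19758.5, 17714 and 12764 with Kit only and 5699, 8971.5, 4442 and 3889.5 with neither. The split was not matched for depth or doublets, so UMIs of both in a barcode do not show that 1 cell made both. Prss50 was at 679, 407, 586 and 431 CPM in the recombination-only members and at 67.6, 219, 36.1 and 149.9 CPM in the Kit-only ones. Uchl1 was at 379, 326, 77.5 and 129 CPM in the recombination-only members and at 1258, 596, 1097 and 736 CPM in the Kit-only ones. The 2 genes ran in opposite directions in each library.

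Between times, few genes of members differed at 350.4 h from 144 h. Called higher at 350.4 h were 1.05% of 4105 genes, and called lower 1.66%. Mki67 was at 526 CPM at 350.4 h and 176 CPM at 144 h, a ratio of 2.99 (2.91 to 3.08). Higher genes were led by Rbakdn, Ldhc, Hist1h2ap, Meig1 and Hist1h2ba, and lower ones by Dcn, Col1a2, Ccnd2, Igfbp7 and Igfbp6. Ccnd2, the gene for cyclin D2, was at 4.39 and 87.7 CPM in the same order. Dcn and Col1a2, made by connective tissue cells, were at 1.097 and 2.41 CPM at 350.4 h and at 68.3 and 62.7 CPM at 144 h.

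At 556.8 h against 350.4 h spermatid transcripts led the differences. Called higher were 16.1% of 4708 genes, and called lower 2.7%; by the mean of per-barcode CPM the counts were 837 and 325, in place of 756 and 127. Prm2, Prm1, Tnp2, Tnp1 and Cst13 led the higher genes, and Esx1, Ccnd1, Ptms, Mdp1 and Bmyc the lower ones. Prm1, which packs DNA in sperm, was at 3491 CPM in members at 556.8 h and 22.2 CPM at 350.4 h. Sertoli-marked barcodes, which do not make it, held 6316 CPM of it at 556.8 h and 37.2 CPM at 350.4 h, and the part of free RNA in the members' difference was not tested. Spermatid genes were called higher in 13 of 13 cases. Cenpa was at 108 and 399 CPM at 556.8 and 350.4 h, and Esx1, an X-linked homeobox gene, at 35.2 and 195 CPM.

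At 763.2 h against 556.8 h few genes of members were called lower. Called higher were 3.12% of 4452 genes, and called lower 0.0898%; by the mean of per-barcode CPM the counts were 149 and 55, in place of 139 and 4. The 4 lower genes were Pou5f2, Rad51ap2, Tdrd6 and Slc2a3. Pou5f2, a transcription factor gene of spermatocytes, was at 19.9 and 75.4 CPM at 763.2 and 556.8 h. The higher ones were led by Spata31, Sox5, Lyzl6, Fam209 and Fyb. Spermatid genes were called higher in 7 of 18 cases. Prm1 was at 3578 CPM in members and 1255 CPM in Sertoli-marked barcodes at 763.2 h.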

How the data were processed

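Whole testes labelled as synchronized were dissociated and profiled by droplet single-cell RNA-seq, with 1 library at each time; samples were grouped by their titles, and the 0 h library stayed outside the comparisons. Per the file headers, Cell Ranger 3.0.2 made the deposited matrices of UMI counts per gene and barcode. The submitters' processing notes list mm10 as the build and Seurat 4.3.0.1 as a tool. How reads were counted is not given in the sources used here. Symbols that occur more than once numbered 65.

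Barcodes were filtered as given above, UMIs were summed over sets of barcodes, and ratios of CPM were given with exact 95% conditional binomial intervals (python 3.11.15, numpy 2.4.6, scipy 1.17.1, pandas 2.3.3, matplotlib 3.10.9). The intervals were run on sums simulated with counting error only, so that run says nothing about variation between cells. Scrublet, run from scanpy 1.11.5 at an expected rate of 0.08, gave doublet scores; marked barcodes were kept, and leaving out scores over 0.25 was an alternative. Counts of called genes include Stra8 itself.

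Members and lists were chosen with earlier results of these data known. Named genes were those with the bounds farthest from 1: 12 higher and 8 lower in every library, 3 more a library, 6 each way against each germ cell set and 5 each way between times, with at least 50 UMIs and without mitochondrial, ribosomal, haemoglobin and unnamed models. Markers and list members are named besides, and some genes are not reported here. Alternatives changed the Stra8, Sertoli, depth and mitochondrial limits, the other barcodes, the weighting of cells, the CPM minimum and the fold.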

Additional observations from a re-analysis of the deposited data

Results flagged for a closer look

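In the 0 h library, which enters no comparison, 84 barcodes met the same Stra8 rule. The retinoic acid list stood on opposite sides at 556.8 and 144 h against all other barcodes, with a median log2 ratio of 3.42 over 3 genes at 556.8 h and -1.85 over 6 genes at 144 h. The piRNA list did so at 350.4 and 144 h, with -1.49 over 16 genes at 350.4 h and 1.82 over 8 genes at 144 h. Neither difference was tested.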

How the results depend on the processing

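No paired analysis was possible because each time has 1 library. For the 12 genes named as higher in every library, ratios to the other barcodes ran from 1.68 to 34.4 over the alternatives, with 526 of 528 values beyond 2-fold, and for the 8 named as lower from 0.0245 to 0.647, with 342 of 352 beyond 2-fold. No gene named in these lists changed direction. The CPM minimum and the fold cannot change a ratio, so those values repeat the reported ones. These genes were also chosen for bounds far from 1. Of 880 values over both sets, 436 lay outside the reported interval. Of 148 counts of called genes under the alternatives 105 stayed within 1.5 times the reported count. Of 671 list medians 11 reversed, and 85 more moved by 1.5-fold or more. The fold and the CPM minimum move counts by their construction, and for the other changes the cause was not tested. At 144 h the share of members became 40.6% with a mitochondrial share under 10%, 44.3% with at least 5000 UMIs, 33.5% with at least 3 Stra8 UMIs, 41.9% with at least 1 Stra8 UMI, 32.8% with at least 1 Stra8 UMI per 5000, 29.3% with no Sox9 or Cldn11 UMI and 26.8% with thinning to 2000 UMIs. At 350.4 h the share of members became 32.2% with at least 5000 UMIs, 12.2% with at least 3 Stra8 UMIs, 28.0% with at least 1 Stra8 UMI, 8.21% with at least 1 Stra8 UMI per 5000, 15.9% with no Sox9 or Cldn11 UMI and 4.58% with thinning to 2000 UMIs. At 556.8 h the share of members became 6.52% with at least 5000 UMIs, 3.18% with at least 3 Stra8 UMIs, 8.44% with at least 1 Stra8 UMI, 4.01% with at least 1 Stra8 UMI per 5000 and 1.96% with thinning to 2000 UMIs. At 763.2 h the share of members became 1.56% with a mitochondrial share under 10%, 5.33% with at least 5000 UMIs, 1.39% with at least 3 Stra8 UMIs, 3.80% with at least 1 Stra8 UMI, 1.65% with at least 1 Stra8 UMI per 5000 and 1.03% with thinning to 2000 UMIs. Genes higher than in all others at 144 h became 536 with a mitochondrial share under 10%, 534 with no Sox9 or Cldn11 UMI, 179 with germ cells as the others, 1457 with a 20 CPM minimum and 1681 with a 1.5-fold call, in place of 913. Genes lower than in all others at 144 h became 467 with germ cells as the others and 1773 with a 20 CPM minimum, in place of 1007. Genes higher than in all others at 350.4 h became 274 with at least 1 Stra8 UMI per 5000, 1205 with a 20 CPM minimum and 1398 with a 1.5-fold call, in place of 659. Genes lower than in all others at 350.4 h became 1599 with a 20 CPM minimum, in place of 920. Genes higher than in all others at 556.8 h became 795 with at least 1 Stra8 UMI and 2320 with a 20 CPM minimum, in place of 1257. Genes lower than in all others at 556.8 h became 336 with at least 1 Stra8 UMI and 1506 with a 1.5-fold call, in place of 946. Genes lower than in all others at 763.2 h became 584 with a mitochondrial share under 10%, 482 with at least 1 Stra8 UMI and 1560 with a 1.5-fold call, in place of 990. Genes higher than in all others at 763.2 h became 2458 with a 20 CPM minimum, in place of 1318. Genes higher in members at 350.4 h than at 144 h became 127 with at least 1 Stra8 UMI, 98 with a 20 CPM minimum and 227 with a 1.5-fold call, in place of 43. Genes lower in members at 350.4 h than at 144 h became 108 with at least 1 Stra8 UMI, 36 with at least 1 Stra8 UMI per 5000, 189 with a 20 CPM minimum and 195 with a 1.5-fold call, in place of 68. Genes lower in members at 556.8 h than at 350.4 h became 65 with at least 3 Stra8 UMIs, 442 with at least 1 Stra8 UMI, 43 with at least 1 Stra8 UMI per 5000, 325 with the mean of per-barcode CPM, 231 with a 20 CPM minimum and 694 with a 1.5-fold call, in place of 127. Genes higher in members at 556.8 h than at 350.4 h became 1381 with a 20 CPM minimum, in place of 756. Genes lower in members at 763.2 h than at 556.8 h became 7 with at least 3 Stra8 UMIs, 67 with at least 1 Stra8 UMI, 2 with at least 1 Stra8 UMI per 5000, 55 with the mean of per-barcode CPM, 9 with a 20 CPM minimum and 51 with a 1.5-fold call, in place of 4. Genes higher in members at 763.2 h than at 556.8 h became 256 with at least 1 Stra8 UMI, 56 with at least 1 Stra8 UMI per 5000, 255 with a 20 CPM minimum and 268 with a 1.5-fold call, in place of 139. The median log2 ratio of the list retinoic acid response and turnover at 350.4 h was -1.38 and became 0.29 with a mitochondrial share under 10%, 0.29 with at least 5000 UMIs, 0.18 with at least 3 Stra8 UMIs, 0.074 with at least 1 Stra8 UMI per 5000 and 0.21 with germ cells as the others, on 2 measured genes each. The median log2 ratio of the list undifferentiated spermatogonia at 350.4 h was -4.39 and became 1.51 with a 20 CPM minimum, on 5 measured genes. The median log2 ratio of the list Sertoli cells at 556.8 h was -2.54 and became 1.25 with a mitochondrial share under 10% and 1.29 with germ cells as the others, on 1 measured gene each. The median log2 ratio of the list Sertoli cells at 763.2 h was -1.18 and became 0.91 with a mitochondrial share under 10%, 0.88 with at least 5000 UMIs and 1.03 with germ cells as the others, on 1 measured gene each.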
